A study of Lupinus albus with 12 samples.

Results

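The untreated root tip of white lupin (Lupinus albus) was described from 3 control libraries, of 12 in the series, each made from the root of 1 plant. The members were chosen by their label alone: the libraries labelled as controls without sucrose, harvested at 0 min. All 3 plants were wildtype, of the cultivar Amiga, and grew in hydroponic Hoagland solution at about 21 °C under 16 h of light and 8 h of darkness. No sucrose, other agent or transgene was given to them. About 100 mg of several root sections, each 4 to 5 cm long with its tip, was frozen from each plant, so a library mixed the tip with the older tissue behind it. Polyadenylated RNA was sequenced with a stranded kit, all libraries on 1 lane. The question put to the data was which genes and protein families dominated the root before any treatment, and which of them differed between the 3 plants. The other 9 libraries, from sucrose-treated plants, were not used.

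A root tip holds a cap, a zone of dividing cells, a zone of elongation and, further from the apex, maturing tissue with hairs, an endodermis sealed by Casparian strips, and conducting vessels. Dividing cells are known for a high output of ribosomal proteins and histones, elongating cells for aquaporins and wall-loosening enzymes, and the root surface for secreted defence proteins. Legume roots also make isoflavonoids, which act in defence and in signalling to soil microbes, and white lupin is known for roots that release carboxylates and acid phosphatases when phosphate is scarce.

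The libraries held 54369867, 58906006 and 63481050 reads in genes for plants 1, 2 and 3. Of 33388 genes in the table, 26711 had reads in all 3 plants, 20168 averaged at least 1 FPKM (fragments scaled to transcript length and library size, as the authors deposited them) and 2273 had no read in any plant. Levels of different genes are compared below in FPKM, which allows for transcript length. Plants are compared in CPM (read counts scaled to library size) with edgeR's TMM factors, and the ratio of the highest to the lowest plant is always of these CPM. The deposited FPKM of plant 2 are lower than its TMM-scaled CPM for all genes alike, by a factor of 0.940, and this shifted the median gene of plant 2 against the other plants from 0.02 to -0.12 on the log2 scale. In bulk tissue, fewer cells of a type and less RNA per cell cannot be told apart.

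The label was checked against lists of marker names. Root cap names matched 4 genes, and the most abundant, Lalb_Chr08g0238841, a root cap/late embryogenesis-like protein, stood at 44.0, 33.7 and 61.0 FPKM in plants 1, 2 and 3. The 59 histone genes, which package newly made DNA, held 0.619% ± 0.0643 (SD, n = 3) of the summed FPKM, and the 140 genes of cell cycle and replication held 0.231% ± 0.00658. CASP-like proteins, a family that includes the Casparian strip proteins, numbered 43, and their leading member Lalb_Chr02g0154781 stood at 25.04, 39.99 and 53.89 FPKM. Names of the cap and of dividing cells and CASP-like names were thus all detected in each plant.

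Markers of other organs were present at low levels. The 138 photosynthesis genes together held 0.105% ± 0.0143 (SD, n = 3), led by a small subunit of Rubisco, the carbon-fixing enzyme of leaves (Lalb_Chr13g0300171, at 102, 95.3 and 41.6 FPKM). The 16 seed storage genes held 0.0328% ± 0.00833. No gene name stood for leghemoglobin itself, the oxygen carrier of nitrogen-fixing nodules; the word occurred once, in a leghemoglobin reductase. The 19 nodule names held 0.157% ± 0.0620, mostly in Early nodulin-93 (Lalb_Chr07g0178771, at 485, 446 and 189 FPKM), a membrane protein family that is not limited to nodules. The leaf and seed lists thus each held less of the transcript pool than the histones did.

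A small number of genes supplied much of the transcript pool. The most abundant gene alone made 0.980% ± 0.0670 (SD, n = 3) of the summed FPKM, the first 10 genes 4.62% ± 0.243, the first 100 genes 16.7% ± 0.336 and the first 1000 genes 45.5% ± 0.332. In the mean profile, 1283 genes held 50% of the summed FPKM, and the plants taken singly needed 1223, 1250 and 1257 genes. Plants agreed less on which genes these were: 62 genes were in the first 100 of all 3 plants, and 144 in the first 100 of any. Plants 1 and 2 shared 79 of their first 100, plants 2 and 3 shared 76, and plants 1 and 3 shared 63. The abundant genes coded for short proteins, with a median of 272.5 amino acids in the first 100 and 243 in the first 1000, against 379 over the 22874 genes that averaged at least 1 CPM. The former were ranked by FPKM, which divides by transcript length, and the latter chosen by CPM, which does not. Part of this difference can therefore come from how the sets were chosen. Only 3 of the first 100 were named as uncharacterized, while the 6299 uncharacterized genes together held 9.33% of the summed FPKM.

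Thaumatins are secreted defence proteins first known from sweet-tasting fruit, and 1 thaumatin gene was the most abundant transcript of the untreated root. Lalb_Chr09g0321111 stood at 4257, 3532 and 3690 FPKM in plants 1, 2 and 3, with a ratio of 1.14 between the highest and the lowest plant. It made 92.9% of the summed FPKM of the 27 genes in the deposited thaumatin family, so this family was in effect a single gene. Of the other 14 leading genes, 3 were PR10 genes of 1 cluster on chromosome 12 and 1 was the PR10 gene LlR18A, 3 were aquaporins, and the rest were a metallothionein, a quinone reductase, a cytokinin dehydrogenase, a proline-rich wall protein, a glucanase, a chalcone synthase and a translation factor.

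**Figure D1:**
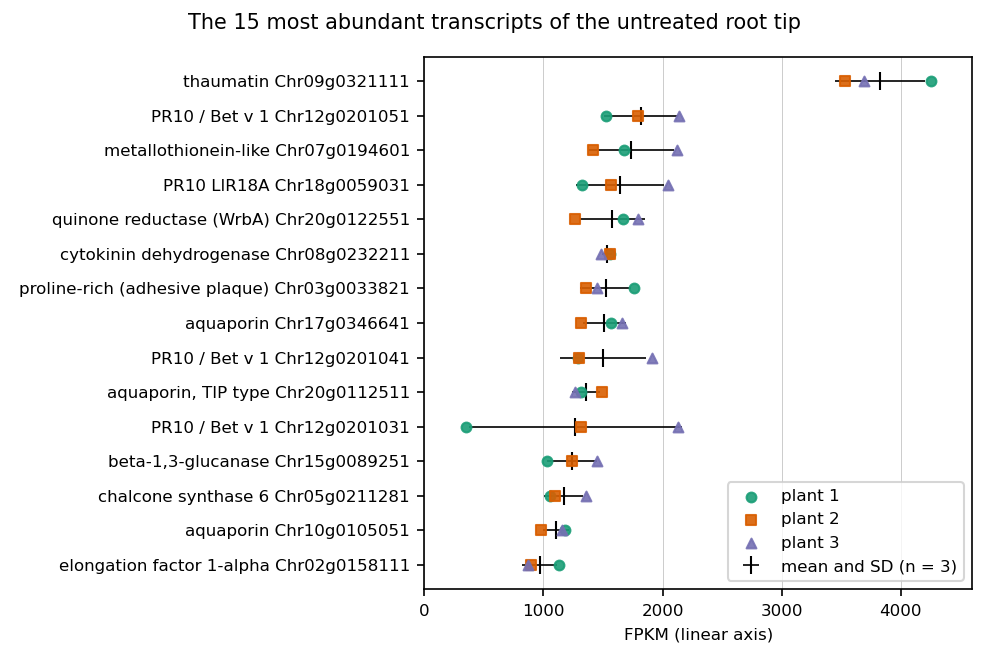
FPKM of the 15 genes with the highest mean FPKM, as a marker for each plant, with the mean as a tick and the SD over 3 plants as a bar (linear axis from 0). The thaumatin stands apart at 3532 to 4257 FPKM; the PR10 gene Chr12g0201031 spans 346 to 2134 FPKM, the widest of the 15.

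PR10 proteins (the Bet v 1 family) are small intracellular proteins that bind plant metabolites and accumulate in roots and after infection. The 16 genes with such a name held 1.83%, 1.94% and 2.75% of the summed FPKM in plants 1, 2 and 3 (a mean of 2.17%, and 1.25% of the reads, since the transcripts are short), and 7 of them were among the first 100 genes. Of these 7, Lalb_Chr12g0201061 (rank 37) and Lalb_Chr12g0201021 (rank 61) were there through 1 plant each, as given below. The most abundant PR10 gene, Lalb_Chr12g0201051, stood at 1523, 1795 and 2142 FPKM, a ratio of 1.42. LlR18A (Lalb_Chr18g0059031) followed at 1324, 1565 and 2048 FPKM, a ratio of 1.56. In both genes plant 3 was the highest and plant 1 the lowest. Of the 14 PR10 genes tested, 11 were highest in plant 3 and 3 in plant 1. Over all 22874 genes tested, 8522 were highest in plant 3 and 7963 in plant 1.

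The 128 chitinases, glucanases and thaumatins held 1.83% ± 0.120 (SD, n = 3) of the summed FPKM, of which the leading thaumatin made 53.5%. A glucan endo-1,3-beta-D-glucosidase (Lalb_Chr15g0089251), which cuts the callose and fungal-wall polymer beta-1,3-glucan, stood at 1031, 1237 and 1450 FPKM and made 79.6% of its family of 54 glycosyl hydrolases. Germins, secreted proteins of the wall that include oxidases releasing hydrogen peroxide, were spread over more genes: the 24 germin-like genes held 0.992% of the summed FPKM and the leading gene made 22.1% of that. The most abundant germin, Lalb_Chr18g0046251, stood at 525, 915 and 1116 FPKM, lowest in plant 1. Peroxidases, which build and cross-link wall polymers or remove peroxide, held 1.16% ± 0.0532 over 105 genes, led by Lalb_Chr07g0177241 at 813, 574 and 755 FPKM. The ascorbate peroxidase Lalb_Chr03g0027041, which removes peroxide inside the cell, stood at 755, 572 and 617 FPKM.

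Aquaporins, the water channels of the plasma membrane and the vacuole, held 1.76% ± 0.257 (SD, n = 3) of the summed FPKM over 46 genes, 7 of them among the first 100. Lalb_Chr17g0346641, named as a major intrinsic protein, stood at 1563, 1313 and 1657 FPKM and the vacuolar (TIP-type) channel Lalb_Chr20g0112511 at 1317, 1491 and 1267 FPKM. Both lay within 1.29-fold in CPM across the plants. The list as a whole was less even, with a median ratio of 1.81, against 1.48 over all genes tested. Of its 30 tested members 21 were highest in plant 3, against 8522 of 22874 genes overall. The abundant member Lalb_Chr01g0018611 stood at only 177 FPKM in plant 1 but at 818 and 967 FPKM in plants 2 and 3, a ratio of 5.52, while Lalb_Chr03g0027361 was highest in plant 2, at 46.2, 278 and 91.5 FPKM. These 2 genes were chosen after their values were seen.

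Metal-binding and detoxifying proteins formed a further group. Metallothioneins, short cysteine-rich proteins that bind copper and zinc, held 0.651% ± 0.105 (SD, n = 3) of the summed FPKM over 7 genes, and 0.261% of the reads. Lalb_Chr07g0194601 alone stood at 1680, 1414 and 2122 FPKM, and Lalb_Chr12g0210241 at 808, 547 and 784 FPKM, both lowest in plant 2. The quinone reductase Lalb_Chr20g0122551, a flavin enzyme of the WrbA family that detoxifies quinones, stood at 1669, 1269 and 1793 FPKM and made 62.5% of the summed FPKM of its 11 genes. The glutathione transferase Lalb_Chr16g0392551, which conjugates toxic compounds to glutathione, stood at 629, 587 and 798 FPKM. In these genes plant 3 was highest in all but Lalb_Chr12g0210241, and the ratios of the 4 lay between 1.28 and 1.37.

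The phenylpropanoid and flavonoid genes, which supply lignin, flavonoids and isoflavonoids, held 1.91%, 2.17% and 2.41% of the summed FPKM in plants 1, 2 and 3, over 168 genes of which 9 were among the first 100. Chalcone synthase 6 (Lalb_Chr05g0211281), the entry enzyme of flavonoid synthesis, stood at 1055, 1095 and 1359 FPKM. It made 75.3% of its family of 35 genes. The 2-hydroxyisoflavanone synthase Lalb_Chr05g0218601, the enzyme that opens the branch to isoflavonoids in legumes, stood at 751, 806 and 840 FPKM. In CPM both were lowest in plant 1; the highest plant was plant 3 for the chalcone synthase and plant 2 for the isoflavone enzyme. Of the list as a whole, 61 of the 111 tested members were highest in plant 3, against 8522 of 22874 genes overall.

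Hormone genes were led by a cytokinin dehydrogenase (Lalb_Chr08g0232211), which breaks down cytokinins, the hormones that promote cell division and restrain root growth. It stood at 1557, 1558 and 1487 FPKM, ranked sixth by mean FPKM, and made 85.7% of its family of 39 oxidoreductases. In CPM its ratio was 1.15, so it was among the more even of the abundant genes. The ethylene list of 37 genes held 0.188% ± 0.0208 (SD, n = 3). Its leading gene, the aminocyclopropanecarboxylate oxidase Lalb_Chr17g0347281, which makes ethylene, differed more between plants, at 95.4, 153 and 352 FPKM. The second, Lalb_Chr08g0241131, stood at 139, 152 and 157 FPKM, a ratio of 1.21. The auxin list of 190 genes, mostly auxin-response regulators and auxin-induced proteins, held 0.444% ± 0.0397, led by the dormancy/auxin associated genes Lalb_Chr18g0045821 and Lalb_Chr15g0089711 at 202 ± 26.3 and 170 ± 39.4 FPKM (SD, n = 3).

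Ribosomal proteins were the largest list by share. Their 563 genes held 7.34%, 6.61% and 6.36% of the summed FPKM in plants 1, 2 and 3, with a mean of 6.77% ± 0.510 (SD, n = 3), but the leading gene made only 1.67% of the list. Ribosomal protein L7 (Lalb_Chr04g0264651) stood at 536, 376 and 414 FPKM and L6E (Lalb_Chr08g0238851) at 382, 301 and 293 FPKM. Because ribosomal proteins are short, the same genes took 4.31% of the reads. Plant 1 was highest in 269 of the 462 tested ribosomal protein genes, against 7963 of 22874 genes overall. The median ribosomal protein gene lay 0.14 above the other plants in plant 1, and 0.06 and 0.09 below them in plants 2 and 3, on the log2 scale relative to all genes.

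Translation factors showed the same order. The 180 genes held 1.55%, 1.46% and 1.35% of the summed FPKM, and plant 1 was highest in 88 of 162. Elongation factor 1-alpha (Lalb_Chr02g0158111), which brings tRNA to the ribosome, stood at 1131, 898 and 871 FPKM. A second copy, Lalb_Chr06g0174461, stood at 307, 270 and 262 FPKM. Histones, too, were highest in plant 1 for 36 of 54 tested genes and in plant 3 for 5. Histone H2B (Lalb_Chr24g0394241) stood at 187, 146 and 172 FPKM and histone H3 (Lalb_Chr11g0062041) at 167, 146 and 112 FPKM. For cell cycle and replication, 47, 39 and 33 of the 119 tested genes were highest in plants 1, 2 and 3, and 35, 27 and 57 were lowest there. Over all 22874 genes tested, 7963, 6389 and 8522 were highest in plants 1, 2 and 3, and 7977, 6209 and 8688 were lowest there. Cell cycle and replication genes were thus also lowest in plant 3 more often than all genes were. The cyclin-dependent kinase Lalb_Chr20g0120271, which drives the cell cycle, was highest in plant 3, at 34.03, 35.88 and 46.26 FPKM.

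Protein turnover took near-equal shares of the 3 libraries. The 809 genes of ubiquitin and the proteasome held 2.60%, 2.65% and 2.68% of the summed FPKM. A proteasome beta subunit (Lalb_Chr07g0183311), part of the protein-degrading core, stood at 156, 147 and 164 FPKM. The E2 ubiquitin-conjugating enzyme Lalb_Chr03g0037161, which carries ubiquitin to its targets, was the leading and less even member, at 105, 174 and 248 FPKM.

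Wall genes included structural proteins and wall enzymes. The hydroxyproline-rich, proline-rich and arabinogalactan proteins, which are laid into the wall, held 0.760% ± 0.0128 (SD, n = 3) over 93 genes. The repetitive proline-rich cell wall protein Lalb_Chr19g0131921 stood at 1067, 863 and 967 FPKM, and made 32.6% of that list. A further proline-rich gene, Lalb_Chr03g0033821, is deposited as an adhesive plaque protein and stood at 1763, 1357 and 1449 FPKM. Pectin enzymes, which loosen or stiffen pectin, held 0.430% ± 0.0298 over 216 genes, led by the pectinesterases Lalb_Chr07g0190051 at 288, 356 and 259 FPKM and Lalb_Chr09g0319651 at 266, 263 and 337 FPKM. Xyloglucan endotransglucosylases, expansins and cellulose synthases held less, at 0.185% ± 0.0185, 0.110% ± 0.0125 and 0.108% ± 0.00605. As shares of reads, which do not allow for transcript length, their order was another, at 0.170%, 0.0887% and 0.233%. The leading expansin, a wall-loosening protein (Lalb_Chr11g0067821), was nearly level across plants at 59.0, 58.5 and 59.0 FPKM, and the second, Lalb_Chr08g0239121, stood at 46.7, 36.6 and 89.0 FPKM.

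Primary metabolism was marked by glycolysis and fermentation. The 96 glycolytic genes held 1.66%, 1.58% and 1.22% of the summed FPKM, with 6 of them among the first 100. Glyceraldehyde-3-phosphate dehydrogenase (Lalb_Chr08g0236991) stood at 673, 571 and 673 FPKM and enolase (Lalb_Chr20g0112241, deposited as phosphopyruvate hydratase) at 611, 521 and 550 FPKM. These leading genes were even, yet plant 3 was the lowest plant in 51 of the 76 tested glycolytic genes, against 8688 of 22874 overall. Nitrogen assimilation held 0.634% ± 0.0372 (SD, n = 3) over 30 genes. Glutamine synthetase (Lalb_Chr22g0353451), which fixes ammonium, stood at 506, 468 and 554 FPKM, and a high-affinity nitrate transporter (Lalb_Chr08g0236821) at 447, 322 and 376 FPKM.

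Genes of phosphate supply were detected but were not among the leading transcripts of these roots. The part that the phosphate of the Hoagland solution had in this was not tested. The 77 phosphate genes held 0.160% ± 0.0138 (SD, n = 3). An acid phosphatase (Lalb_Chr25g0280201), which frees phosphate from organic compounds, stood at 59.5, 112 and 104 FPKM, and Phosphate transporter 2 (Lalb_Chr17g0337571) at 71.4, 78.7 and 116 FPKM. Carboxylate synthesis and export held 0.461% ± 0.0265 over 80 genes, led by the malate dehydrogenases Lalb_Chr21g0312041 at 190, 182 and 190 FPKM and Lalb_Chr19g0133911 at 167, 131 and 130 FPKM.

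Transport, lipid and methyl-group metabolism added further abundant genes. Lipid transfer proteins, small proteins of the wall and cell surface that carry lipids, held 0.597% ± 0.0991 (SD, n = 3) of the summed FPKM over 95 genes, and 0.318% of the reads. Their leading member, Lalb_Chr13g0291901, stood at 830, 439 and 948 FPKM and the next, Lalb_Chr05g0225711, at 248, 385 and 393 FPKM, so the low plant was not the same in both. Proton pumps, which energize uptake into root cells, held 0.402% ± 0.0139, led by the plasma membrane ATPases Lalb_Chr18g0052441 at 289, 226 and 211 FPKM and Lalb_Chr13g0300121 at 127, 113 and 136 FPKM. Sugar transport genes held 0.274% ± 0.0280, and their leading member Lalb_Chr22g0357221, a sugar transporter of the major facilitator family, was near level at 140, 150 and 144 FPKM. Adenosylhomocysteinase (Lalb_Chr12g0205641), which clears the by-product of methylation, stood at 714, 548 and 471 FPKM. Dehydrin (Lalb_Chr02g0157301), a protective protein of drying cells, stood at 381, 311 and 421 FPKM, and an abscisic acid 8'-hydroxylase (Lalb_Chr05g0215161), which degrades that hormone, at 213, 191 and 96.1 FPKM.

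Of the 7 lists of transcription factors, that of MYB and homeobox genes held most, at 0.768% ± 0.0272 (SD, n = 3) over 547 genes. It was followed by bHLH at 0.403% ± 0.00247, AP2 and ERF at 0.317% ± 0.0529, bZIP at 0.295% ± 0.0200, WRKY at 0.284% ± 0.0219, NAC at 0.127% ± 0.0123 and GRAS at 0.0698% ± 0.00788. The leading MYB-like gene, Lalb_Chr13g0298041, stood at 397, 226 and 187 FPKM. The leading AP2 and ERF gene, Lalb_Chr06g0166561, of the family that includes ethylene-response factors, stood at 225, 225 and 97.9 FPKM. The leading WRKY gene, Lalb_Chr23g0276611, of a family active in defence, stood at 115, 116 and 132 FPKM.

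**Figure D2:**
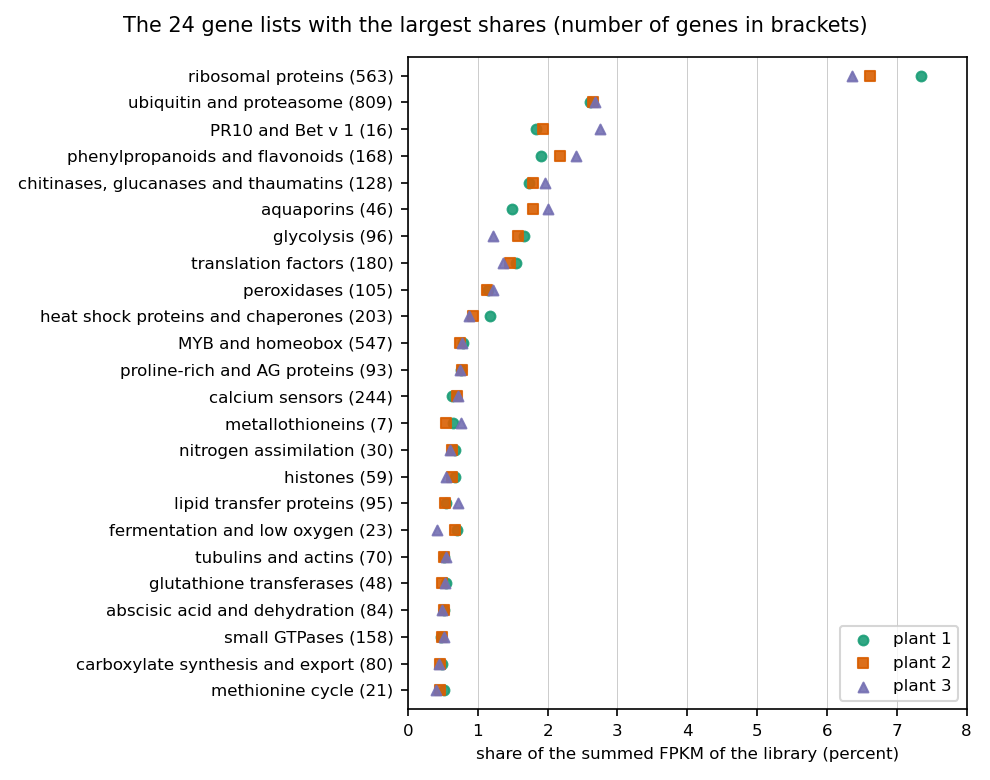
Share of each library's summed FPKM held by the 24 gene lists with the largest mean share, as a marker for each plant (percent, linear axis from 0; number of genes in each list in brackets). Ribosomal proteins lie between 6.36% and 7.34%, and PR10 genes reach 2.75% in plant 3 against 1.83% and 1.94% in plants 1 and 2.

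Counting error was a small part of the spread between the 3 plants, which also holds that of separate libraries. Over the 22874 genes with a mean of at least 1 CPM, the median variance between plants was 34.9 times that of Poisson counting. Over the 24406 genes that edgeR's own filter kept, the common dispersion was 0.160, a biological coefficient of variation of 0.400. Pearson's r of log2 CPM across genes was 0.853 between plants 1 and 2, 0.836 between plants 2 and 3 and 0.818 between plants 1 and 3, where genes are not independent replicates. The ratio of the highest to the lowest plant had a median of 1.48, and of 1.83, 1.36 and 1.29 in genes averaging 1 to 10, 10 to 100 and at least 100 CPM. Each plant is 1 library, so a difference between plants has no replicate, and a gene is called here by size alone: at least 4-fold between the highest and the lowest plant, values under 3 reads being raised to 3 reads. By that rule 2482 genes (10.9% of those tested) were called. Among the first 100 genes by FPKM, 5 were called (5% against 10.9%), and among genes averaging at least 100 CPM 55 of 2068 (2.66%). Of genes averaging at least 10 CPM, 808 of 14017 (5.76%) were called, and 1388 of all genes tested (6.07%) were at least 8-fold apart.

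In 1691 genes (7.39%) 1 plant stood at least 4-fold from both others. Plant 1 stood above in 245 genes (1.07%) and below in 418 (1.83%), plant 2 above in 182 (0.796%) and below in 302 (1.32%), and plant 3 above in 341 (1.49%) and below in 332 (1.45%). No plant thus held most of these genes. Restricted to genes with at least 30 reads in every plant, 1404 of 21770 (6.45%) were 4-fold apart, and 714 had 1 plant apart.

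The lists differed in how many of their genes were called, against 10.9% over all genes. That share fell with abundance, to 5.76% of genes averaging at least 10 CPM and 2.66% of those averaging at least 100 CPM. The lists were not matched for abundance. Among lists with at least 10 tested genes, the lowest share was that of the phosphate list (1 of 49), followed by translation factors (6 of 162) and histones (2 of 54). Ribosomal proteins (40 of 462) and ubiquitin and the proteasome (79 of 640) lay closer to the share of all genes, and proton pumps (7 of 42) above it. Over 2 times the share of all genes was reached by 4 of these lists: xylem, whose 27 genes are all laccases (7 of 21), PR10 (4 of 14), sucrose cleavage (7 of 29) and transposon-derived genes (6 of 27). These counts are small and carry no test. Their median ratios were 2.42, 2.27, 1.48 and 1.73, against 1.48 over all genes, so in sucrose cleavage the called genes were a minority beside otherwise even members. The most abundant called transposon genes, both transposases, had few reads: Lalb_Chr21g0312571 was listed at 1140, 0 and 896 reads and Lalb_Chr21g0306201 at 14, 211 and 162.

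**Figure D3:**
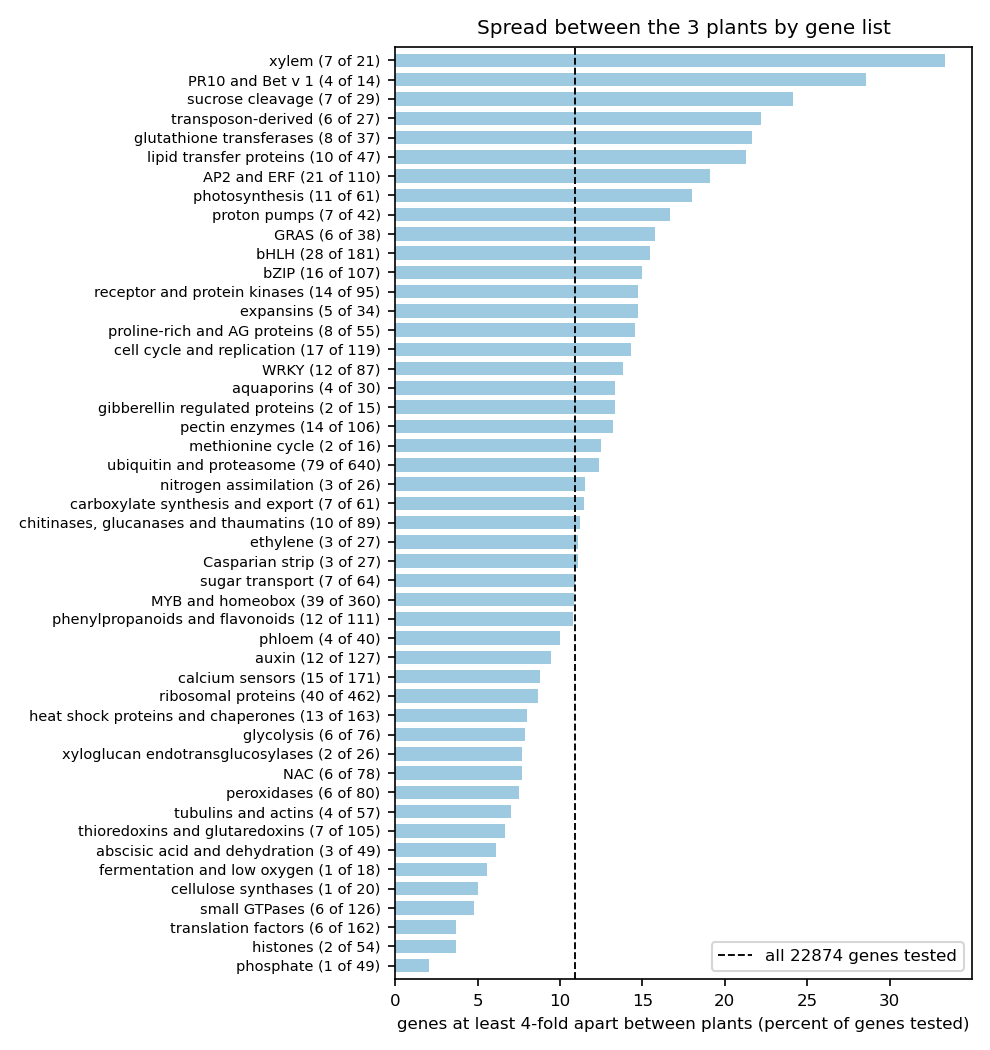
Percentage of the tested genes of each list that were at least 4-fold apart between the highest and the lowest of the 3 plants (bars from 0; called and tested genes in brackets), for lists with at least 10 tested genes. The dashed line marks the 10.9% of all 22874 genes tested; xylem, a list of laccases (7 of 21), lies farthest above it and phosphate (1 of 49) farthest below.

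Wide contrasts were seen among the PR10 genes of chromosome 12. There, 6 PR10 genes follow each other directly in the annotation of the assembly CNRS_Lalb_1.0. Lalb_Chr12g0201061 had 110432 reads in plant 1 but 9 and 12 reads in plants 2 and 3, or 1770, 0.119 and 0.144 FPKM. Lalb_Chr12g0201021 had 510, 57 and 90875 reads, or 8.49, 0.787 and 1237 FPKM. Each was thus a leading transcript of 1 plant and nearly unread in another. Lalb_Chr12g0201031, named PR-10 protein, stood at 346 FPKM in plant 1 and at 1316 and 2134 FPKM in plants 2 and 3, a ratio of 6.23.

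The remaining genes of the cluster did not switch in this way. Lalb_Chr12g0201041 stood at 1286, 1295 and 1914 FPKM and Lalb_Chr12g0201051, given above, had a ratio of 1.42. Lalb_Chr12g0201071 was low throughout, at 15.02, 21.20 and 38.27 FPKM. The 6 genes summed to 4948, 4428 and 7466 FPKM in plants 1, 2 and 3, a ratio of 1.59 in summed CPM. That sum includes the abundant and even Lalb_Chr12g0201041 and Lalb_Chr12g0201051, so it is bound to be more even than the most variable members. It does not show whether those members offset each other. The proteins of the 6 genes are close in length, at 152 to 160 amino acids. How reads that match several genes were counted is not given in the sources used here, so the division of reads between them is uncertain, and its part in the contrasts was not tested.

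**Figure D4:**
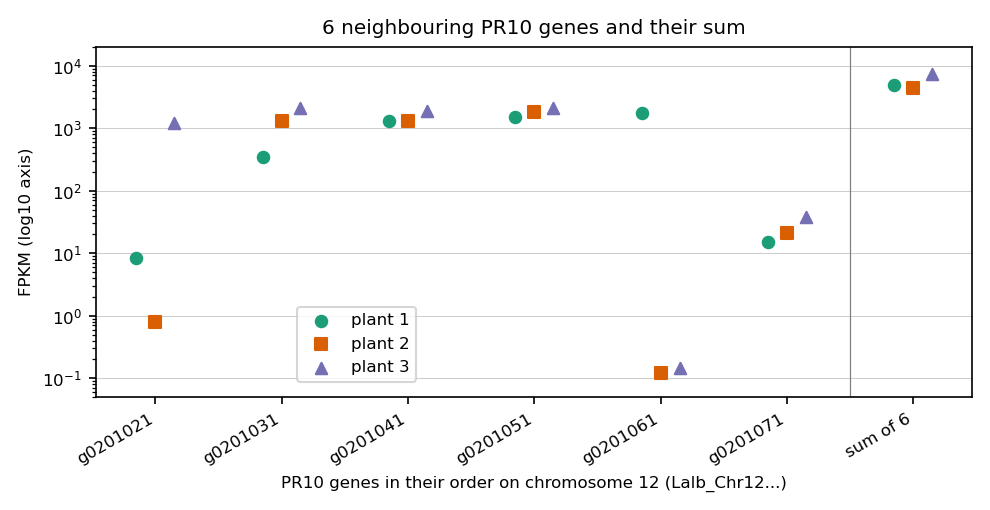
FPKM (log10 axis) of the 6 neighbouring PR10 genes on chromosome 12 in gene order, and of their sum, as a marker for each plant. Chr12g0201021 is high in plant 3 alone (1237 FPKM) and Chr12g0201061 in plant 1 alone (1770 FPKM), while the sum lies between 4428 and 7466 FPKM in all 3.

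Other PR10 and germin genes varied by degrees. On chromosome 20, LlR18B (Lalb_Chr20g0121081) stood at 113, 244 and 299 FPKM and its neighbour but one, Lalb_Chr20g0121101, at 9.29, 21.9 and 43.5 FPKM. In both, plant 1 was lowest and plant 3 highest. On chromosome 4, 4 germins were instead lowest in plant 3: Lalb_Chr04g0261921 stood at 982, 762 and 458 FPKM, its neighbour Lalb_Chr04g0261931 at 755, 839 and 394, Lalb_Chr04g0261891 at 903, 818 and 429, and Lalb_Chr04g0261861 at 848, 724 and 260. Another germin of that chromosome, Lalb_Chr04g0261941, at 142, 130 and 149 FPKM, was not lowest in plant 3, and on chromosome 25 the germin Lalb_Chr25g0281401 was highest in plant 3, at 37.0, 53.5 and 165 FPKM. Of the 16 tested germins, 11 were highest in plant 3 and 5 lowest there, against 8522 and 8688 of 22874 genes overall. The family's share of the summed FPKM was nevertheless lowest in plant 3, at 1.05%, 1.17% and 0.760% in plants 1, 2 and 3.

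A set of abundant genes stood lower in plant 3. Among the 611 genes averaging at least 100 FPKM, 41 (6.71%) were at least 2-fold lower in plant 3 than in both other plants, where all genes gave 4.42%. Plants 1 and 2 stood that far below in 11 (1.80%, all genes 4.63%) and 1 (0.164%, all genes 3.27%) of the 611. The counts of genes above both others were 5 (0.818%), 4 (0.655%) and 8 (1.31%) for plants 1, 2 and 3, where all genes gave 2.70%, 2.16% and 5.09%. This rule was set after the values were seen. The count of 41 was 37 (6.06%, all genes 4.03%) when library totals replaced the TMM factors and 29 (4.75%, all genes 3.91%) with the scaling of the deposited FPKM, so under the latter the abundant genes lay close to all genes.

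Alcohol dehydrogenase and pyruvate decarboxylase carry out ethanolic fermentation, which yields energy without oxygen. Alcohol dehydrogenase 1 (Lalb_Chr23g0271341) stood at 1266, 901 and 650 FPKM in plants 1, 2 and 3, and the leading pyruvate decarboxylase (Lalb_Chr01g0023181) at 706, 618 and 332 FPKM. A second pyruvate decarboxylase (Lalb_Chr07g0191401) stood at 84.4, 78.7 and 25.3 FPKM, and the lactate dehydrogenase Lalb_Chr05g0225731 at 412, 315 and 161 FPKM. Non-symbiotic hemoglobin 1 (Lalb_Chr01g0002841), which scavenges nitric oxide when oxygen is low, stood at 227, 311 and 190 FPKM. Hypoxia induced proteins Lalb_Chr08g0231331 and Lalb_Chr02g0148071 stood at 221, 261 and 151 FPKM and at 128, 138 and 73.6 FPKM. In each of these 7 genes plant 3 was the lowest, by 1.79-fold to 3.39-fold against the highest plant. The 7 were gathered with their values known, so their shared order is not a test.

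The list of 23 fermentation and low-oxygen genes as a whole did not share this order. It held 0.698%, 0.671% and 0.419% of the summed FPKM, a ratio of 1.74 in summed CPM. However, 9 of its 18 tested genes were highest in plant 3 and 7 were lowest there. Over all 22874 genes tested, 8522 were highest and 8688 lowest in that plant. The lactate dehydrogenase is not in this list, so the 7 lowest here are not the same as the 7 genes above. The members highest in plant 3 were less abundant ones, such as the alcohol dehydrogenase Lalb_Chr19g0124521 at 43.0, 58.0 and 84.1 FPKM. Only 1 of the 18 genes was 4-fold apart (5.56% against 10.9%), the alcohol dehydrogenase Lalb_Chr22g0354051 at 21.0, 4.71 and 28.3 FPKM.

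**Figure D5:**
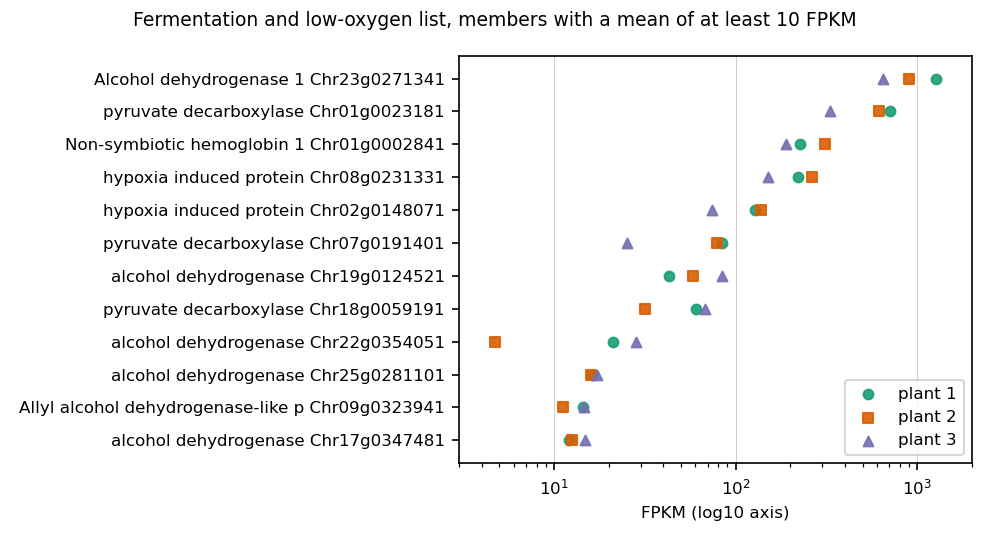
FPKM (log10 axis) of the 12 members of the fermentation and low-oxygen list with a mean of at least 10 FPKM, as a marker for each plant. Plant 3 is lowest in the 6 most abundant members, for example alcohol dehydrogenase 1 at 650 FPKM against 901 and 1266, and highest in several of the less abundant ones.

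Regulators and enzymes were found among the 41 genes lower in plant 3. LOB-domain transcription factors, which act in organ boundaries and in lateral root formation, include 3 of them: Lalb_Chr06g0174611 at 652, 512 and 252 FPKM, Lalb_Chr02g0158231 at 490, 384 and 173, and Lalb_Chr14g0371171 at 328, 253 and 114. Together the 62 genes of that family held 0.410%, 0.361% and 0.188% of the summed FPKM, the widest ratio of summed CPM, 2.22, among families with at least 10 tested genes and at least 0.1% of the FPKM. The order was not that of the family as a whole. Of its 27 tested genes 16 were highest in plant 3, against 8522 of 22874 genes overall. Trihelix factors contributed a further 3 genes, among them Lalb_Chr01g0018431 at 305, 278 and 122 FPKM. A cysteine dioxygenase (Lalb_Chr21g0317271), of the enzyme family that in Arabidopsis includes oxygen-dependent cysteine oxidases, stood at 170, 200 and 72.1 FPKM. Early nodulin-93 and the AP2 and ERF gene Lalb_Chr06g0166561, both given above, also belonged to the 41. One of the 41, the carboxylesterase Lalb_Chr09g0319721, was high in plant 2 alone, with 52, 37695 and 2 reads.

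Sucrose synthase, which splits sucrose with UDP and so supplies sugar to sink tissue, had copies that differed to unequal degrees. Lalb_Chr12g0200341 stood at 433, 153 and 63.7 FPKM, a ratio of 6.71, and Lalb_Chr07g0181391 at 217, 97.3 and 5.19 FPKM, a ratio of 41.3. The third abundant copy, Lalb_Chr11g0073991, stood at 230, 231 and 164 FPKM, a ratio of 1.54. In sum the 12 sucrose synthase genes stood at 905, 497 and 264 FPKM, so here the sum differed between plants as well, with a ratio of 3.54 in summed CPM. Fructokinase (Lalb_Chr22g0352101), which takes up the fructose so released, was more even at 591, 523 and 433 FPKM.

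In other enzymes 1 copy differed widely between plants while the sum over the copies differed less. As for PR10, such a sum is bound to be more even than a copy picked for its spread. It does not show whether the copies offset each other. A methionine adenosyltransferase (Lalb_Chr08g0233061), which makes the methyl donor S-adenosylmethionine, stood at 11.7, 8.45 and 472 FPKM, whereas the leading copy Lalb_Chr04g0260141 stood at 394, 294 and 314. The 11 copies summed to 905, 758 and 1270 FPKM, with a ratio of 1.28 in summed CPM. Without Lalb_Chr08g0233061 they summed to 893, 749 and 799 FPKM, a ratio of 1.10, so that copy alone made plant 3 the highest. An elongation factor 1-alpha copy (Lalb_Chr22g0360661) stood at 136.2, 100.7 and 7.11 FPKM, and the 9 copies summed to 2010, 1630 and 1533 FPKM, a ratio of 1.25 in summed CPM. A glutathione transferase (Lalb_Chr03g0042741) stood at 675, 217 and 17.1 FPKM, and the 35 genes of that name summed to 1947, 1453 and 1781 FPKM, a ratio of 1.24 in summed CPM. Without Lalb_Chr03g0042741 they summed to 1273, 1236 and 1764 FPKM, a wider ratio of 1.38.

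For heat shock protein 70, a chaperone that refolds proteins, 1 copy also made much of the difference in the sum. Lalb_Chr01g0019321 stood at 386, 9.58 and 6.17 FPKM, while the leading copy Lalb_Chr20g0113321 stood at 395, 294 and 288 FPKM. The 23 copies summed to 1477, 845 and 814 FPKM, a ratio of 1.72, and without Lalb_Chr01g0019321 to 1091, 835 and 808 FPKM, a ratio of 1.33 in summed CPM. Plant 1 was highest in 83 of the 163 tested genes of the chaperone list, against 7963 of 22874 genes overall. These sets of copies were picked after their values were seen, and shared reads between copies are uncertain in the way described for PR10.

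Some genes were read in certain plants and not in others. Of the 14017 genes averaging at least 10 CPM, 83 (0.592%) had at most 3 reads in 1 or more plants, and 56 of them had an exact 0 somewhere. They fell on all plants alike, with 33, 30 and 34 of the 83 at that floor in plants 1, 2 and 3. Of the 83, 7 had names of functions that every cell uses. A DNA-directed RNA polymerase subunit beta (Lalb_Chr03g0032171) was listed at 0, 5297 and 2273 reads. Ribosomal protein L12 (Lalb_Chr22g0350661) was listed at 2238, 0 and 3073, and L15 (Lalb_Chr05g0216581) at 1686, 1608 and 0. Because of such values, genes at the floor are given by their reads alone, with no mean or fold. A 0 in 1 gene was not a 0 for its family. The L12 gene is 1 of 12 tested genes of the ribosomal P1/P2 family, whose median ratio was 1.20, and 1.14 in summed CPM. In 9 of the 83 a directly neighbouring gene gained at least 50% of the lost CPM in the plants at the floor; what part gene boundaries had in the others was not tested.

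The named genes that stood highest above both other plants were of that kind, except a PR10 gene. Lalb_Chr12g0201061 had 9 and 12 reads in plants 2 and 3, above the floor of 3 reads. Beside the PR10 gene Lalb_Chr12g0201061, plant 1 stood above in a delta(24)-sterol reductase (Lalb_Chr03g0024881), an enzyme of sterol synthesis, with 10019, 8 and 2 reads, and in a transcription regulator (Lalb_Chr06g0176551) with 2713, 1 and 2 reads. In plant 2 a glucosylceramidase (Lalb_Chr13g0304461), which cleaves membrane glycolipids, was listed at 0, 12779 and 0 reads. A ubiquitin-40S ribosomal protein S27a (Lalb_Chr06g0173881) was listed at 0, 8593 and 0, and a C3H transcription factor (Lalb_Chr01g0000551) at 0, 2807 and 0. In plant 3 a glycosyltransferase (Lalb_Chr08g0238021) had 2, 1 and 25474 reads. A calcium-transporting ATPase (Lalb_Chr08g0245531), which pumps calcium out of the cytosol, was listed at 0, 0 and 16728, and a gene deposited as an aminoacyltransferase and ubiquitin-activating enzyme (Lalb_Chr02g0143451) at 0, 0 and 3960. Each of these genes had at least 2713 reads in its plant and at most 12 in the others.

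The genes that stood lowest below both others mirrored this. In plant 1 a tetraspanin (Lalb_Chr16g0386121) was listed at 0, 4220 and 3786 reads, an oxysterol-binding protein (Lalb_Chr08g0241641) at 2, 4039 and 3434, and a C2H2 zinc finger gene (Lalb_Chr06g0163561) at 0, 2172 and 2713. In plant 2 a zinc-binding ribosomal protein (Lalb_Chr05g0216741) was listed at 7222, 0 and 9286 reads, a shikimate dehydrogenase (Lalb_Chr16g0383431), of the pathway to aromatic amino acids, at 2874, 3 and 4603, and a transcription factor interactor (Lalb_Chr01g0001721) at 3352, 1 and 2897. In plant 3 a methionine synthase (Lalb_Chr24g0403121, deposited as 5-methyltetrahydropteroyltriglutamate--homocysteine methyltransferase) was listed at 6101, 4034 and 0 reads. An oxidoreductase (Lalb_Chr12g0200381) was listed at 3673, 6294 and 0 and a transcription and chromatin remodelling factor (Lalb_Chr09g0321021) at 3882, 3647 and 2.

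Graded differences, with at least 30 reads in every plant, were also found for each plant. In plant 1 a glyceraldehyde-3-phosphate dehydrogenase copy (Lalb_Chr23g0273521) stood at 171, 1.28 and 0.628 FPKM and a NAM-type transcription factor (Lalb_Chr06g0169951) at 11.5, 0.239 and 0.210. In plant 2 a ribosomal protein L13a copy (Lalb_Chr07g0194061) stood at 0.754, 130 and 0.986 FPKM and a dirigent protein (Lalb_Chr16g0390351), which guides lignan coupling, at 0.350, 49.95 and 0.793. In plant 3 an isoflavone 7-O-methyltransferase (Lalb_Chr21g0311791) stood at 0.662, 0.724 and 79.3 FPKM, the thaumatin-like Protein P21 (Lalb_Chr16g0389791) at 3.04, 2.14 and 140, and a lipid transfer protein (Lalb_Chr18g0054241) at 3.54, 0.455 and 143. These examples were chosen after their values were seen.

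Some abundant defence genes were also highest in plant 3. A chitinase (Lalb_Chr06g0161431), which cuts fungal chitin, stood at 34.2, 35.0 and 347 FPKM, and the neighbouring thaumatins Lalb_Chr02g0155541 and Lalb_Chr02g0155531 at 16.2, 18.6 and 155 FPKM and at 14.5, 16.3 and 135 FPKM. In the whole list of chitinases, glucanases and thaumatins, however, 31, 23 and 35 of the 89 tested genes were highest in plants 1, 2 and 3, and 10 were called (11.2% against 10.9%). The count highest in plant 3 was thus near the share of all genes, 8522 of 22874. The list's sum was still highest in plant 3, at 1.74%, 1.79% and 1.97% of the summed FPKM, a ratio of 1.15 in summed CPM.

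Several marker lists had a median gene that was higher in plant 3. For the counts below, 8522 of 22874 genes overall were highest in that plant. The median laccase, an enzyme family of lignin polymerization that makes up the xylem list, lay 0.66 above the other plants in plant 3 on the log2 scale relative to all genes, with 13 of 21 tested genes highest there. The list's share of the summed FPKM did not follow its median gene, at 0.0523%, 0.0638% and 0.0597%, and the leading laccase Lalb_Chr01g0008421 was lowest in plant 3, at 66.3, 60.9 and 48.8 FPKM. The 2 most abundant called members, Lalb_Chr07g0193441 and Lalb_Chr19g0125401, stood at 1.23, 1.34 and 5.94 FPKM and at 1.58, 1.06 and 4.69 FPKM. The median CASP-like gene lay 0.59 above in plant 3, with 16 of 27 highest there, and 0.47 below in plant 1. The median phloem gene lay 0.16 above in plant 3, with 19 of 40 highest there, and that list's shares were near level at 0.0987%, 0.0937% and 0.102%. The median photosynthesis gene lay 0.62 above in plant 3 and 0.63 below in plant 2, with 44 of 61 highest in plant 3, although the leading Rubisco gene was lowest in plant 3. Root cap names, 4 genes, lay 0.65 above in plant 3 and 0.69 below in plant 2, whereas the median CASP-like gene was 0.07 above in plant 2. The median of the 5 tested seed storage genes lay 0.62 above in plant 3. The median nodule gene lay 1.13 below there, with 4 of 6 tested genes lowest in plant 3, against 8688 of 22874 overall. PR10 (0.53 above in plant 3), aquaporins (0.51), glutathione transferases (0.40), metallothioneins (0.40) and peroxidases (0.26) moved with the lists higher in plant 3. Histones (0.21 below), glycolysis (0.29 below) and translation factors (0.15 below) moved against them. The part that a different mix of root zones in the sections had in these orders was not tested.

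At the other end, some abundant genes were level in all 3 plants. The 5 named genes averaging at least 100 CPM with the closest highest and lowest plant each had a ratio of 1.01. They were an adenylyltransferase and sulfurtransferase (Lalb_Chr17g0348661), with 5683, 6111 and 6876 reads, a hydrolase (Lalb_Chr20g0111851), an oxidoreductase (Lalb_Chr16g0387561), an acetyl-CoA acyltransferase (Lalb_Chr03g0036641) of fatty acid breakdown, and a proteasome alpha subunit (Lalb_Chr02g0159801) with 7251, 7833 and 8865 reads. These ratios are of TMM-scaled CPM.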

How the data were processed

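RNA of 3 untreated roots, 1 plant each, was sequenced. The processed table was deposited by the authors with 2 values per gene and library: read counts per gene, not normalized, and FPKM, which the authors scaled to transcript length and library size. Per the submitters' processing notes, bcl2fastq 2.20, FastQC, Trimmomatic 0.32, HISAT2, StringTie and DESeq2 were used, with no role or order stated. Not given in the sources used here are the genome build, the strand setting and how multi-mapped reads were counted. Gene IDs were matched to RefSeq's annotation of CNRS_Lalb_1.0 (33388 of 33388), which was used only for the order of genes.

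Library sizes were 54369867, 58906006 and 63481050 reads. Counts were scaled with TMM in edgeR 4.0.16 (R 4.3.3), and lists and ratios were computed in Python 3.11.15. Genes with a mean of at least 1 CPM were tested by a rule of size: at least 4-fold between the highest and lowest plant, with a floor of 3 reads. The 3 libraries form 1 group, so no test or p-value was possible between plants, and means are given with their SD over 3 plants. The scaling, the dispersion and the fold rule were tested on simulated data that spread less between plants than these libraries. Such data check the computation and do not show how the rule performs here.

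Gene lists were read from the deposited protein names. Named genes were the 15 with the highest mean FPKM, up to 2 leading members of each list, the 3 named genes farthest above and below for each plant, the 5 most even, the 2 most abundant called genes of lists over 2 times the share of all genes, and leading tissue markers. Other named genes were chosen after their values were seen, and the members and lists were chosen with earlier results of these data known. Alternatives were other scalings (DESeq2 1.42.0 size factors, library totals, FPKM), other filters, folds and floors, shares of reads, and each plant left out.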

Additional observations from a re-analysis of the deposited data

How the results depend on the processing

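As shares of reads, which do not allow for transcript length, the first 100 genes held 14.98% and ribosomal proteins 4.31%, and 42 of the 52 other lists moved by over 1 SD, the widest moves being those of metallothioneins (0.651% to 0.261%) and cellulose synthases (0.108% to 0.233%). The count of genes 4-fold apart was 808 at a mean of at least 10 CPM, 5172 with no filter, 6483 at 2-fold, 1388 at 8-fold and 1404 with at least 30 reads in every plant, a filter chosen after seeing the data. The count with 1 plant apart was 554, 3333, 4400, 1058 and 714 in the same order. Leaving out 1 plant gave 1236 to 1643 genes 4-fold apart, as 2 plants remain; the count with 1 plant apart was then not computed. The dispersion was 0.404 with no filter. DESeq2 size factors (2479 and 1692 genes), library totals (2507 and 1707) and a floor of 10 reads (2482 and 1689) kept both counts within 1.5 times, as did the deposited FPKM with their own filter of a mean of at least 1 FPKM, which tested 20168 genes (1754 and 1148). No paired analysis was possible because the 3 libraries form 1 group and no groups were compared. With 1 library per plant, a difference between plants includes that of sampling and library making; intervals were not computed.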
